A study of Mus musculus with 6 samples.

Results

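The hairpins described here make up the paralogous clusters mir-23a, mir-27a and mir-24-2 (the 23a cluster) and mir-23b, mir-27b and mir-24-1 (the 23b cluster). They were taken by name from the small RNA table, and all 6 were found among its 1006 hairpin entries. The table covers 6 libraries. Myo-EVs (2 libraries) are extracellular vesicles collected by ultracentrifugation from the medium of C2C12 cells, a mouse myoblast line. FFSS-Myo-EVs (2 libraries) are vesicles from C2C12 cells kept on an orbital shaker for 48 hr, a fluid flow shear stress (FFSS) of 6 dyn/cm2. A culture time of 48 hr is also given for the Myo-EV libraries. The methods describe medium with serum depleted of vesicles beforehand. Primary osteoblasts (OB) gave 1 library and bone marrow cells (BM) 1 library, both from mice and neither exposed to FFSS. The methods describe OB from the calvariae of 5 pooled mice aged 3 to 5 days and BM from 1 mouse aged 8 weeks, whereas the labels give 8 to 10 weeks for both. For all 6 libraries, the C2C12 vesicles included, the labels give a background that is 81.25% C57BL/6J, with 129/SvJ making up 18.75%. The C2C12 cells themselves were not analysed here, so a ratio of vesicles to OB or BM compares different cell types. Nothing states that the 2 libraries of a vesicle group came from separate cultures. The p-values therefore rest only on the spread between these libraries, which may be technical. In edgeR that spread was pooled over entries.

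The hairpins of a cluster lie close together on 1 strand and can be cut from 1 primary transcript, after which each mature miRNA is processed, loaded into an Argonaute protein and turned over on its own. A miRNA finds its target mRNAs mainly through its seed, bases 2 to 8 from the 5′ end. miR-23a is known for restraining the atrophy ligases atrogin-1 and MuRF1 in muscle and for targeting Runx2, the master transcription factor of osteoblasts. miR-27 is known for targeting Pax3 in muscle progenitors and for restraining adipocyte formation, and miR-24 for promoting muscle cell differentiation.

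The mature sequences are shown because they set which entries can be told apart by sequence. They are from RefSeq (GRCm38.p6), in which all 6 hairpins were matched by symbol, and capitals mark the seed.
miR-23a-3p: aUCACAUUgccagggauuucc
miR-27a-3p: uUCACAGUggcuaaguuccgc
miR-27b-3p: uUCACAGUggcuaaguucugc
miR-24-3p: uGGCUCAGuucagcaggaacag
miR-23b-3p is the corresponding arm of mir-23b. The seeds of miR-23a and miR-27a shared their first 5 bases. miR-27a-3p and miR-27b-3p shared the whole seed and differed at 1 base, C19U, counted from the 5′ end with the miR-27a base first. miR-24-3p was identical from both clusters, and only the rest of the hairpin and the 5p arm differed. The hairpins of mir-24 are printed with miR-24-3p in capitals.
mir-24-1: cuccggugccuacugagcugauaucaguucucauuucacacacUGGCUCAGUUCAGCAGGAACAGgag
mir-24-2: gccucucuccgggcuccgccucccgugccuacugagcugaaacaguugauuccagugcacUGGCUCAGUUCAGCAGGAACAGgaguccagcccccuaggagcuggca
The longest run shared by these hairpins was 28 bases, against 20 bases between mir-23a and mir-23b and 20 bases between mir-27a and mir-27b.

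The 23a cluster spanned 404 bases of chromosome 8 in GRCm38 (GENCODE M21), all on the + strand. Mir23a lay at chr8:84208518-84208592, Mir27a at chr8:84208672-84208758 and Mir24-2 at chr8:84208815-84208921. No protein-coding gene overlapped them, and only the last 2 bases of Mir24-2 lay in an exon of the lincRNA Gm26532. The 23b cluster spanned 792 bases of chromosome 13, also on the + strand, inside the protein-coding gene 2010111I01Rik and opposite introns of Fancc. Mir23b (chr13:63300484-63300557) overlapped no exon. Mir27b (chr13:63300712-63300784) and Mir24-1 (chr13:63301208-63301275) lay in introns of the coding transcripts but overlapped exons of transcripts annotated as subject to nonsense-mediated decay.

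A further pair of hairpins, Mir3074-1 (chr13:63301199-63301283) and Mir3074-2 (chr8:84208825-84208907), lay on the − strand of the mir-24 loci. The reverse complement of mir-3074-1 contained all 68 bases of mir-24-1, and all 83 bases of mir-3074-2 lay within mir-24-2. Their mature form is shown because it is nearly the complement of miR-24-3p.
miR-3074-5p: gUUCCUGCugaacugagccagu
Its reverse complement shared a run of 20 bases with the 22 bases of miR-24-3p. The reads were paired-end. The sources used here do not state whether the counting used strand or how reads matching several hairpins were assigned. Counts of mir-24-1, mir-24-2, mir-3074-1 and mir-3074-2 therefore cannot be told apart with certainty. The mir-3074 entries were brought in for this position after their values were seen.

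Total counts ranged from 2414132 to 6092460 per library, and the authors' normalized expression value is the count multiplied by 1 constant per library. The test between vesicle groups covered the 354 entries averaging 10 or more on that scale over the 4 vesicle libraries. Summed blood cell miRNAs (8 entries) reached 27034.7 in BM and 170.6 to 341.9 elsewhere. Summed mesenchymal miRNAs (7 entries) were 536441 in OB, 335152 to 437744 in the vesicles and 22199.7 in BM. Of 6 muscle entries, which summed to 2052.9 to 2641.9 in the vesicles, 118.9 in OB and 71.9 in BM, nearly all vesicle signal came from mir-206, and mir-1a-1 was at 0 in all 4 vesicle libraries. In edgeR, 3 of the 4 muscle entries tested were called lower with FFSS and 0 higher, beside 18.4% and 12.1% of all tested entries. They were mir-133b (log2 fold change -1.75, means 40.55 and 13.05), mir-133a-1 and mir-133a-2. mir-206 was not called (0.15). In the vesicles, blood mir-451a was 3.0 and 4.8 in Myo-EVs against 25.9 and 17.7 in FFSS-Myo-EVs, and mir-122, a liver and serum miRNA, was 6.0 and 4.8 against 17.9 and 15.5. Across the 8 blood entries the sum was 170.6 and 236.0 in Myo-EVs, where mir-142b was at 0 in both libraries and mir-223 and mir-144 in the second, against 263.1 and 253.7 in FFSS-Myo-EVs. Most of this vesicle sum came from mir-486a and mir-486b. Their means were 93.25 and 97.15 in Myo-EVs, against 97.7 and 108.25 in FFSS-Myo-EVs. Neither was called (edgeR log2 fold change -0.04 and 0.04). mir-451a and mir-122 were called higher in FFSS-Myo-EVs (edgeR log2 fold change 2.36 and 1.47). Both reached the filter of 10 only through FFSS-Myo-EVs, so no support is drawn from these calls. The other 5 listed blood entries were below the filter. The part of the blood, liver and serum miRNAs in the differences described here was not tested.

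The 6 members made up 1.21% and 1.38% of all counts in Myo-EVs, against 1.44% and 1.46% in FFSS-Myo-EVs, 6.43% in OB and 7.54% in BM. As listed, mir-27b led in every library, and the other members stood in another order in vesicles than in cells. The mir-23 and mir-27 hairpins were lower in vesicles than in OB and BM. mir-24-1 as listed was higher on the authors' scale, but for FFSS-Myo-EVs against BM this turned when mir-3074 counts were added. In bulk libraries, fewer vesicles or cells of a type and less of a miRNA in each cannot be told apart.

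As listed, mir-27b was the most abundant member in every library. With mir-3074-1 counts added, mir-24-1 counts were 0.964 and 1.00 of those of mir-27b in Myo-EVs, so the lead there depends on the listing. The normalized expression value of mir-27b was 18467.4 and 21545 in Myo-EVs, against 26148.3 and 25199.3 in FFSS-Myo-EVs, 147286 in OB and 129665 in BM. It was the 5th most abundant of the 1006 entries in OB, the 3rd in BM and between the 17th and the 20th in the vesicles. All 4 vesicle libraries thus lay well below both cell libraries. OB was above BM by 1.14-fold, but this order depended on the scaling (0.961 to 1.33 over 4 scalings).

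mir-23b stood in the same order at a lower level. It was 1546.9 and 1770.2 in Myo-EVs, against 2134.9 and 2176.3 in FFSS-Myo-EVs, 13502.5 in OB and 11177.5 in BM. The vesicle libraries lay below both cell libraries, and the lowest FFSS-Myo-EV value lay above the highest Myo-EV value.

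mir-24-1, the third hairpin of this cluster, had the reverse order. It was 3614.8 and 4453 in Myo-EVs, against 2631 and 3078.9 in FFSS-Myo-EVs, 1427.6 in OB and 2101.1 in BM. On the authors' scale Myo-EVs were highest and OB lowest, and no groups overlapped. In OB it was, as listed, the least abundant of the 6 members.

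In the 23a cluster, mir-23a was 1751.7 and 1923.5 in Myo-EVs, against 2907.9 and 2879.5 in FFSS-Myo-EVs, 7537.7 in OB (95% exact Clopper-Pearson interval 7411.9 to 7665.0) and 16969.6 in BM (16809.6 to 17130.7). These intervals cover counting error only. mir-27a was 4888.6 and 4777.5 in Myo-EVs, against 6068.9 and 5708.1 in FFSS-Myo-EVs, 11668.5 in OB and 18291.4 in BM. From lowest to highest, both stood in the order Myo-EVs, FFSS-Myo-EVs, OB and BM, with no overlap between neighbours.

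mir-24-2 differed from its mates. It was 4577.5 and 5315.3 in Myo-EVs, against 3492.7 and 3826.5 in FFSS-Myo-EVs, 2609.9 in OB and 4354.3 in BM. BM lay between the vesicle groups, and its distance to the lower Myo-EV library was smaller than the Myo-EV SD of 521.7 (n = 2).

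**Figure D1:**
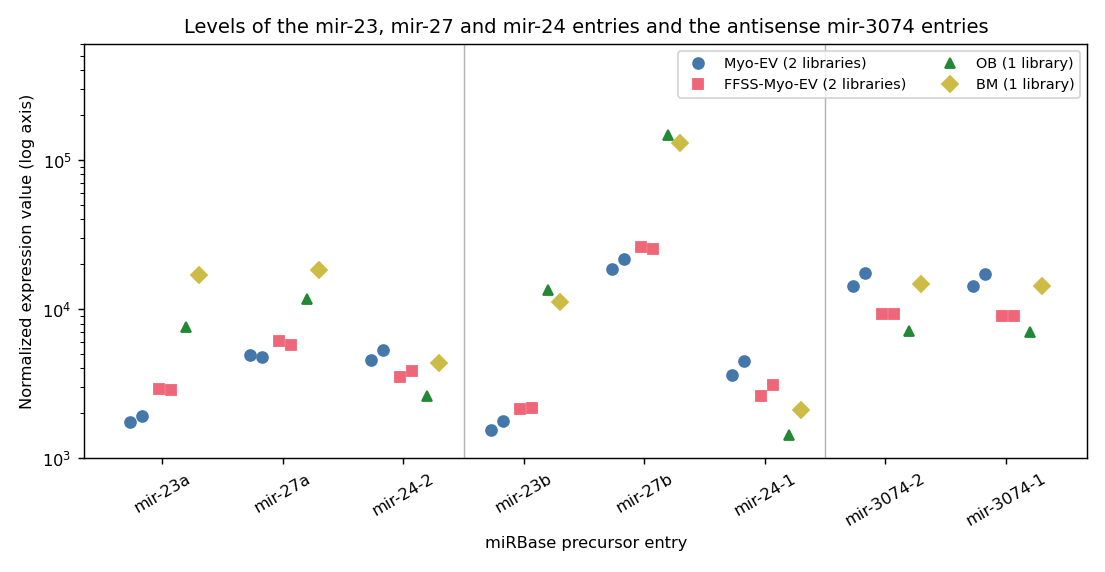
Normalized expression value (log axis) of each of the 6 hairpins and of the antisense mir-3074 hairpins in each of the 6 libraries, 1 point per library. mir-23a, mir-27a, mir-23b and mir-27b lie lower in the 4 vesicle libraries than in OB and BM, and mir-24-1 as listed lies higher in them on this scale, which for FFSS-Myo-EVs against BM turns with mir-3074-1 counts added (fold 0.720).

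Against OB, 4 members were more than 2-fold lower in the Myo-EV mean and 1 was more than 2-fold higher. Over all entries with a value of at least 10 in either, 38.4% were lower and 36.7% higher, and the direction of the members followed the miRNA family. The fold of Myo-EVs over OB was 0.123 for mir-23b, 0.136 for mir-27b, 0.244 for mir-23a and 0.414 for mir-27a. It was 1.90 for mir-24-2 and 2.83 for mir-24-1. Each had 1 OB library behind it, so there is no replicate check of OB or BM.

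Against BM, 4 members were more than 2-fold lower in Myo-EVs, beside 40.9% of all entries, and 0 were more than 2-fold higher, beside 39.1%. The folds ran from 0.108 for mir-23a to 1.92 for mir-24-1, and the latter was 1.20 with mir-3074-1 counts added and 1.39 with the mir-24 hairpins summed. FFSS-Myo-EVs had 3 members more than 2-fold lower than OB, beside 32.5% of all entries, and 0 more than 2-fold higher, beside 36.8%. mir-24-1 was at that limit, at a fold of 2.00, and mir-27a just short of it, at 0.505. With library totals, median-of-ratios factors, TMM factors or paralogs summed, 4 members were lower. Against BM, FFSS-Myo-EVs had 4 members lower, beside 36.9%, and 0 higher, beside 39.6%. For mir-24-1, FFSS-Myo-EVs over BM was 1.36 as listed, 1.00 with TMM factors, 1.01 with the mir-24 hairpins summed and 0.720 with mir-3074-1 counts added, so no direction is drawn. mir-24-2 was 0.840-fold BM in FFSS-Myo-EVs and 1.14-fold BM in Myo-EVs, the latter between 0.918 and 1.14 over 4 scalings.

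Between the cell types the members differed less. OB was below BM by more than 2-fold for mir-23a only (0.444), beside 30.6% of all entries lower, and for 0 members above it, beside 34.6% higher. The fold of OB over BM was 0.638 for mir-27a, 0.599 for mir-24-2, 0.679 for mir-24-1 and 1.21 for mir-23b.

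**Figure D2:**
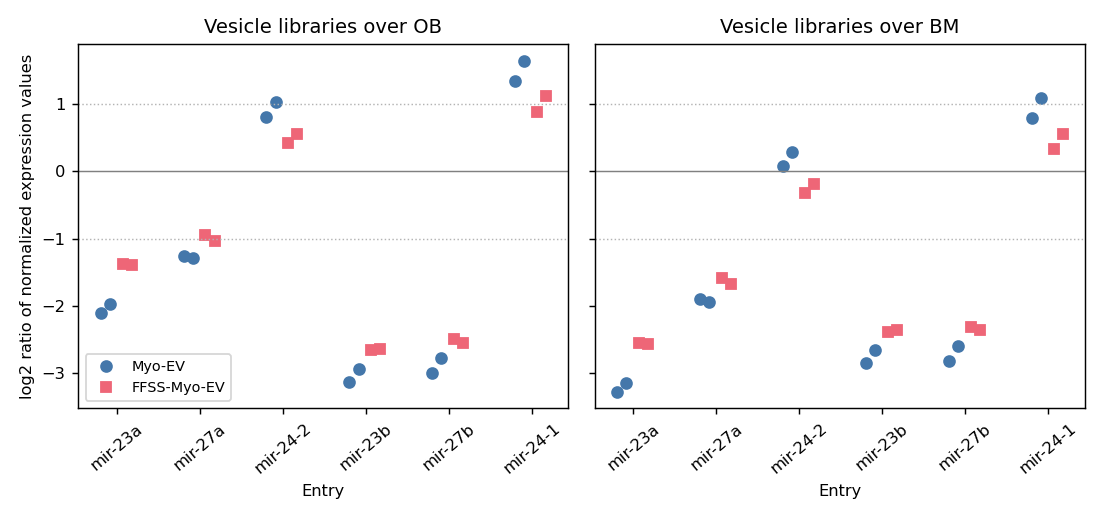
Log2 ratio of the normalized expression value of each vesicle library over OB and over BM for each hairpin, 1 point per vesicle library, with the line of equal level. The mir-23 and mir-27 hairpins lie below it throughout, with folds of the group means from 0.108 for mir-23a to 0.505 for mir-27a. mir-24-1 as listed lies above it, with folds of the group means up to 2.83. For the FFSS-Myo-EV mean over BM, mir-24-1 is at 1.36 on the plotted scale but at 1.00 with TMM factors and 0.720 with mir-3074-1 counts added.

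FFSS was compared with no FFSS in the vesicle libraries with edgeR's quasi-likelihood test on the counts, adjusted over the 354 entries. Its prior degrees of freedom were infinite. Each SE and p-value thus rests on a spread pooled over entries, not on that of the member's own libraries alone. mir-23a was higher in FFSS-Myo-EVs, both mir-24 hairpins were lower, and neither mir-27 hairpin nor mir-23b passed the test. This made 1 member higher, where 12.1% of all tested entries were called higher, and 2 lower, where 18.4% were called lower. The whole test gave 43 higher and 65 lower entries, and 54 and 39 with the authors' scaling. The median log2 fold change was 0.20 over the members and -0.02 over all tested entries. On the authors' scale the median over all tested entries moves up by 0.12, so all values are best read against it.

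mir-23a rose from 1837.6 ± 121.5 (SD, n = 2) in Myo-EVs to 2893.7 ± 20.1 in FFSS-Myo-EVs. In edgeR the log2 fold change was 0.53 (SE 0.13, adjusted p = 0.000222). Without FFSS-Myo-EV replicate 1 the value was positive but not called (edgeR, adjusted p = 0.0782).

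mir-24-1 fell from 4033.9 ± 592.7 to 2855.0 ± 316.7, with an edgeR log2 fold change of -0.62 (SE 0.13, adjusted p = 2.23e-05). mir-24-2 fell from 4946.4 ± 521.7 to 3659.6 ± 236.0, with a log2 fold change of -0.56 (SE 0.13, edgeR adjusted p = 0.000222). Without FFSS-Myo-EV replicate 1 the edgeR adjusted p was 0.0562 for mir-24-1 and 0.0705 for mir-24-2, and without FFSS-Myo-EV replicate 2 it was 0.113 for mir-24-2. The direction was downward in each of these.

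The other members did not pass the test. mir-23b was 1658.6 ± 157.9 in Myo-EVs and 2155.6 ± 29.3 in FFSS-Myo-EVs (edgeR log2 fold change 0.26, SE 0.13, adjusted p = 0.109). mir-27b was 20006.2 ± 2176.2 and 25673.8 ± 671.0 (0.24, SE 0.16, edgeR adjusted p = 0.286), and mir-27a was 4833.1 ± 78.6 and 5888.5 ± 255.1 (0.16, SE 0.13, edgeR adjusted p = 0.409). mir-23b and mir-27b passed it without Myo-EV replicate 2. On the authors' scale the groups did not overlap for any member, with FFSS-Myo-EVs above for 4 and below for 2. Over all tested entries 36.7% lay wholly above and 23.7% wholly below, so separation alone sets few entries apart.

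**Figure D3:**
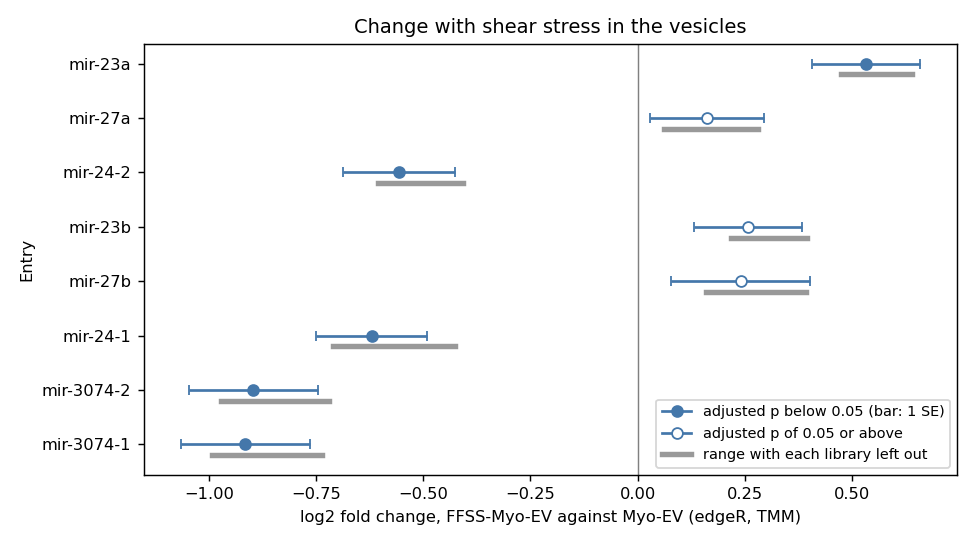
Log2 fold change of FFSS-Myo-EVs over Myo-EVs (edgeR) for the 6 hairpins and the antisense mir-3074 hairpins, with bars of 1 SE. mir-23a lies above 0, at 0.53, the mir-24 hairpins lie below 0, at -0.62 and -0.56, and the mir-3074 hairpins lie further below, at -0.92 and -0.90.

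The antisense entries moved with mir-24 and held more counts. mir-3074-1 was 14189.1 and 17185.5 in Myo-EVs, against 9020.6 and 9034 in FFSS-Myo-EVs, 6999.8 in OB and 14395.1 in BM. Its edgeR log2 fold change was -0.92 (SE 0.15, adjusted p = 3.03e-08), and that of mir-3074-2 was -0.90 (SE 0.15, adjusted p = 6.05e-08). The ratio of mir-3074-1 to mir-3074-2 lay between 0.974 and 0.990 in every library. The ratio of summed mir-24 to summed mir-3074 counts was 0.287 and 0.283 in Myo-EVs, against 0.336 and 0.377 in FFSS-Myo-EVs, 0.286 in OB and 0.222 in BM. With all 4 entries summed, the log2 fold change was -0.85 (edgeR adjusted p = 1.06e-06).

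Ratios between mates were then taken within each library, where no scaling between libraries enters. A ratio of counts is not a ratio of molecules, since ligation and amplification differ between sequences, but that part is shared when 1 ratio is compared across libraries made alike.

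In the 23b cluster, mir-23b and mir-27b stood in nearly the same ratio in every library. It was 0.0838 and 0.0822 in Myo-EVs, against 0.0816 and 0.0864 in FFSS-Myo-EVs, 0.0917 in OB and 0.0862 in BM. The groups overlapped, and the log2 ratio differed by 0.02 between FFSS-Myo-EVs and Myo-EVs (2-sided exact permutation test, p = 1).

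The ratio of mir-24-1 to mir-27b ran over a far wider range. It was 0.196 and 0.207 in Myo-EVs, against 0.101 and 0.122 in FFSS-Myo-EVs, 0.00969 in OB and 0.0162 in BM. The geometric mean of Myo-EVs was 20.8 times the OB ratio and 12.4 times the BM ratio, and that of FFSS-Myo-EVs 11.4 and 6.84 times. FFSS-Myo-EVs lay between Myo-EVs and the cells, with a log2 difference from Myo-EVs of -0.86. The ratio of mir-23b to mir-24-1 was 0.428 and 0.398 in Myo-EVs, against 0.811 and 0.707 in FFSS-Myo-EVs, 9.46 in OB and 5.32 in BM.

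In the 23a cluster all 3 ratios were ordered. mir-24-2 to mir-27a was 0.936 and 1.11 in Myo-EVs, against 0.576 and 0.670 in FFSS-Myo-EVs, 0.224 in OB and 0.238 in BM. In Myo-EVs these mates were thus near equal as listed, and in cells mir-27a was over 4 times mir-24-2 as listed. mir-23a to mir-24-2 was 0.383 and 0.362 in Myo-EVs, against 0.833 and 0.753 in FFSS-Myo-EVs, 2.89 in OB and 3.90 in BM. In geometric mean it was 2.13 times as high in FFSS-Myo-EVs as in Myo-EVs. mir-23a to mir-27a was 0.358 and 0.403 in Myo-EVs, against 0.479 and 0.504 in FFSS-Myo-EVs, 0.646 in OB and 0.928 in BM.

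**Figure D4:**
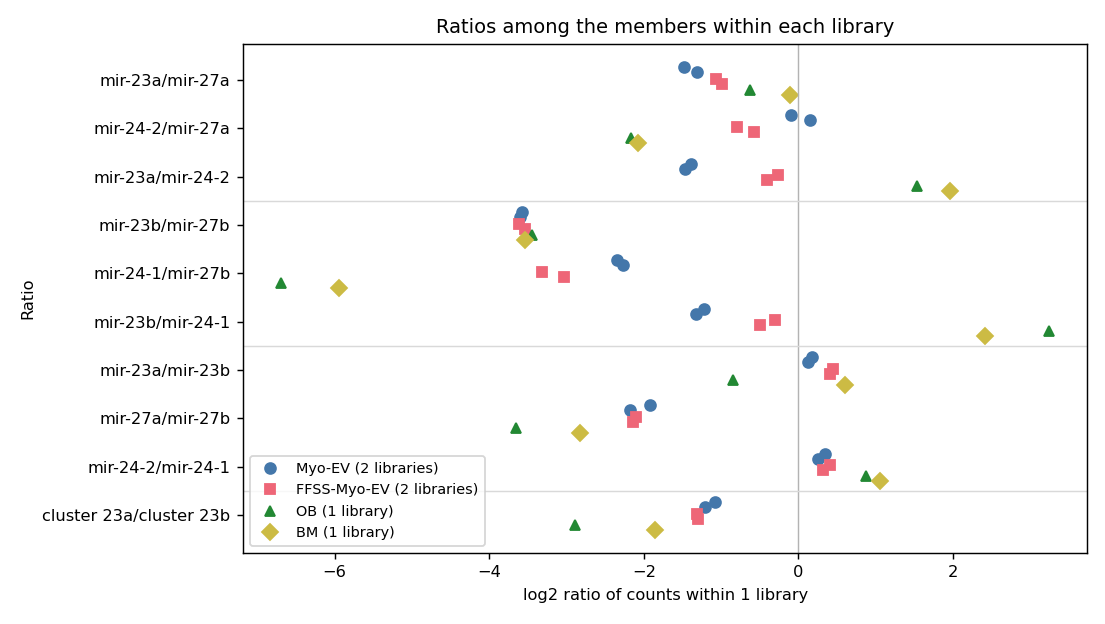
Log2 of within-library count ratios, 1 point per library, for mates of both clusters, for paralogs and for the cluster sums. The mir-23b to mir-27b ratio stays between 0.0816 and 0.0917 in all 6 libraries, while mir-24-1 to mir-27b runs from 0.207 in a Myo-EV library to 0.00969 in OB.

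Between paralogs, mir-24-2 to mir-24-1 was 1.27 and 1.19 in Myo-EVs, against 1.33 and 1.24 in FFSS-Myo-EVs, 1.83 in OB and 2.07 in BM. mir-27a to mir-27b was 0.265 and 0.222 in Myo-EVs, against 0.232 and 0.227 in FFSS-Myo-EVs, 0.0792 in OB and 0.141 in BM. Both ratios overlapped between the vesicle groups. mir-23a to mir-23b was 1.13 and 1.09 in Myo-EVs, against 1.36 and 1.32 in FFSS-Myo-EVs, 0.558 in OB and 1.52 in BM, so the cell types lay on either side of the vesicles. The whole 23a cluster over the whole 23b cluster was 0.475 and 0.433 in Myo-EVs, against 0.403 and 0.408 in FFSS-Myo-EVs, 0.134 in OB and 0.277 in BM. The 23b cluster thus held more counts than the 23a cluster in every library.

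Of the 10 ratios, 7 did not overlap between FFSS-Myo-EVs and Myo-EVs. The exact permutation p was 0.333 for each (Benjamini-Hochberg 0.476 over the 10), the smallest that 2 against 2 libraries can give, so the design cannot reach 0.05. Among all pairs of tested entries, 63.0% did not overlap, so the count of 7 is near the background. In 8 of 10 ratios all 4 vesicle libraries lay on 1 side of both OB and BM, the exceptions being mir-23b to mir-27b and mir-23a to mir-23b, and over all pairs this held for 61.5%.

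With mir-3074 counts added to mir-24, the ratios of mir-24 to mir-27 in both clusters kept Myo-EVs highest, then FFSS-Myo-EVs, BM and OB. mir-24-1 plus mir-3074-1 over mir-27b was 0.964 and 1.00 in Myo-EVs, against 0.446 and 0.481 in FFSS-Myo-EVs, 0.0572 in OB and 0.127 in BM. mir-24-2 plus mir-3074-2 over mir-27a was 3.88 and 4.74 in Myo-EVs, against 2.10 and 2.29 in FFSS-Myo-EVs, 0.835 in OB and 1.04 in BM. The ratio of mir-24-2 to mir-24-1, in contrast, became 1.07 and 1.05 in Myo-EVs, against 1.09 and 1.08 in FFSS-Myo-EVs, 1.16 in OB and 1.15 in BM, so that the vesicle groups no longer overlapped and OB and BM were within counting error of each other. Summing over paralogs removes the question of which copy a read came from only if each read was counted once, which is not stated. Summed so, without mir-3074, mir-24 to mir-27 was 0.351 and 0.371 in Myo-EVs, against 0.190 and 0.223 in FFSS-Myo-EVs, 0.0254 in OB and 0.0436 in BM. mir-23 to mir-27 covered a narrower range, between 0.132 in OB and 0.190 in BM.

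As shares of the counts of the 6 members, mir-24 took 23.5% and 24.6% in Myo-EVs, against 14.1% and 16.1% in FFSS-Myo-EVs, 2.19% in OB and 3.54% in BM. mir-27 took 67.0% and 66.2% in Myo-EVs, against 74.3% and 72.1% in FFSS-Myo-EVs, 86.4% in OB and 81.0% in BM. mir-23 took between 9.28% and 15.4%. These shares leave out the mir-3074 counts, which cannot be told apart from mir-24 with certainty. Summed mir-24 counts were between 0.222 (BM) and 0.377 (an FFSS-Myo-EV library) of summed mir-3074 counts. With mir-3074 included, the mir-24 share would be larger and the mir-27 share smaller in every library.

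**Figure D5:**
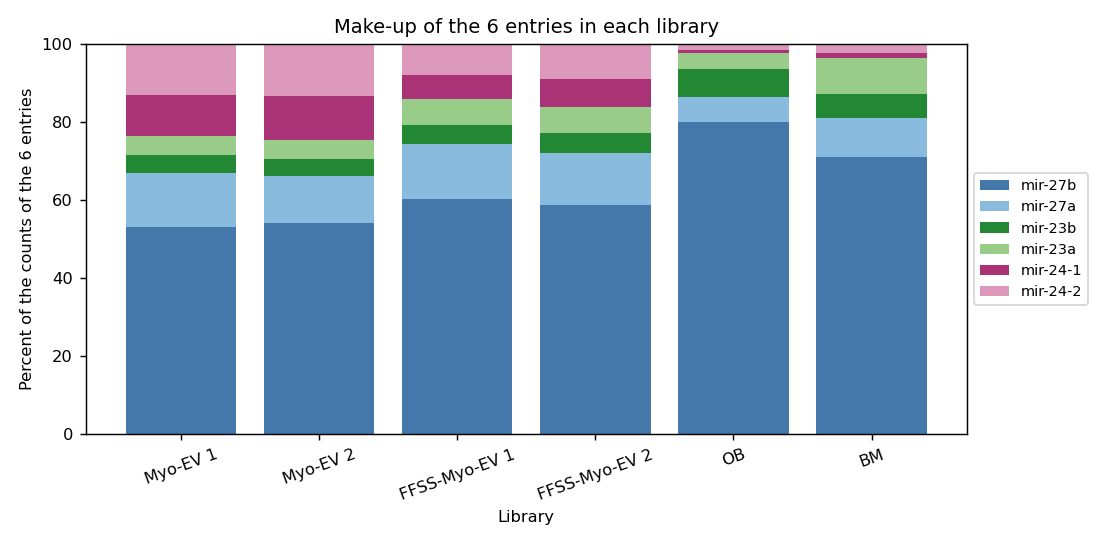
Share (percent) of the counts of the 6 hairpins taken by each in each library, as stacked bars from 0 to 100. The mir-24 hairpins together take 23.5% and 24.6% in Myo-EVs, against 14.1% and 16.1% in FFSS-Myo-EVs, 2.19% in OB and 3.54% in BM. The mir-3074 counts are left out.

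Mates of 3 other miRNA clusters were measured for comparison. mir-221 to mir-222 lay between 1.59 and 2.41 in all 6 libraries, and mir-143 to mir-145a between 10.9 and 17.5. mir-199a-2 to mir-214 was 2.51 and 1.69 in Myo-EVs, against 2.85 and 2.48 in FFSS-Myo-EVs, 11.0 in OB and 9.01 in BM. A vesicle ratio far from the cell ratio was therefore also found in another cluster.

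The miR-128 hairpins are relatives of miR-27 by sequence, since bases 1 to 7 of miR-128-3p equal the miR-27 seed and are shown in capitals.
miR-128-3p: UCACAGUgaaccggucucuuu
In the comparison of FFSS-Myo-EVs with Myo-EVs, 0 of 2 were called. The edgeR log2 fold change was -0.14 for mir-128-1 (adjusted p = 0.631) and -0.36 for mir-128-2 (adjusted p = 0.196).

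Of 15 hairpins of miRNAs reported to target Runx2, mir-23a among them, 14 were in the table, 8 were tested, 1 was higher (mir-23a itself) and 3 were lower, beside 12.1% and 18.4% of all tested entries. The median log2 fold change of the 8 was -0.10. mir-34c, which also represses osteoblast differentiation, fell from 23702.8 ± 3693.1 to 17140.3 ± 546.1 (SD, n = 2; edgeR log2 fold change -0.59, adjusted p = 0.00187). The muscle miRNA hairpins mir-133a-1 and mir-133a-2 fell from low levels, with edgeR log2 fold changes of -1.49 and -1.92. Their means were 19.15 and 18.75 in Myo-EVs, against 7.2 and 5.2 in FFSS-Myo-EVs. Both thus reached the filter of 10 only through Myo-EVs. No support is drawn from their calls, which are counted among the 3 lower. mir-133a-1 was 19.1 and 19.2 in Myo-EVs, against 10.0 and 4.4 in FFSS-Myo-EVs. These hairpins give the same mature miRNA and are not independent of each other.

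Over the 6 libraries, on a log2(value + 1) scale, mir-23b and mir-27b had a Pearson r of 1.00 and mir-23a and mir-27a of 0.995. mir-24-1 and mir-24-2 had an r of 0.856, and mir-24-1 and mir-23b of -0.899. These are descriptions over 6 points that fall into vesicles and cells. Among 240 other entries, those most like the mean of the 23a cluster were mir-361 (r = 0.994), mir-181a-2 (0.994) and mir-3068 (0.991). Those most like the mean of the 23b cluster were mir-1291 (0.997), mir-148b (0.994) and mir-148a (0.985). Each mean includes a mir-24 hairpin that ran against its mates. mir-24-2 had an r of -0.375 with mir-23a and -0.382 with mir-27a, and mir-24-1 of -0.894 with mir-27b. Likeness to the mean is therefore not likeness to each member.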

How the data were processed

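Small RNA of 6 libraries (90 ng of total RNA and 12 PCR cycles each, per the labels and methods) was sequenced by the authors with paired-end reads of 36 bases. The authors grouped reads by sequence, matched them with CLC Genomics Workbench to miRBase, and deposited whole-number counts per hairpin without normalization. The second deposited value, the authors' normalized expression value, is a signal equal to the count times 1 constant per library. The arms of a hairpin are not listed apart. The submitters' processing notes name mm10; mismatches allowed, strand and treatment of reads matching several hairpins are not given in the sources used here.

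Counts of the 4 vesicle libraries were tested with edgeR 4.0.16 (R 4.3.3, TMM factors, quasi-likelihood test, Benjamini-Hochberg adjustment, threshold 0.05) over 354 entries with a mean normalized value of at least 10. OB and BM have 1 library each and were given without a test, and "called" there means more than 2-fold. Ratios were compared with exact permutation tests. Intervals are exact Clopper-Pearson at 95%. The test was tried on simulated counts of 354 entries: it found 184 of the 200 given a 2-fold change, with the right sign, besides 6 false calls, and made 0 calls in counts without any change. The simulated counts had edgeR's fitted common dispersion (0.0108) for all entries and both groups. Real replicates differed by a chi-square per degree of freedom of 93.3 in Myo-EVs and 15.9 in FFSS-Myo-EVs. The rate of false calls in the real libraries was therefore not tested. Python 3.11.15, pandas 2.3.3 and scipy 1.17.1 were used. Positions came from GENCODE M21 and sequences from RefSeq.

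The members, the lists and the markers were chosen with earlier results of these data known. The text names the 6 members, 3 comparison clusters, the miR-128 and Runx2 lists, the markers, and for each cluster the 3 entries (mean of at least 100) with the highest correlation. The mir-3074 entries and 4 alternatives that sum entries were added after values were seen. Alternatives were other scalings, filters, DESeq2 1.42.0, limma 3.58.1, a replicate block and leaving out each vesicle library.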

Additional observations from a re-analysis of the deposited data

How the results depend on the processing

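The direction of each member's log2 fold change between FFSS-Myo-EVs and Myo-EVs was kept under every alternative run. mir-23a, mir-24-1 and mir-24-2 were called under each alternative that used all 4 vesicle libraries, and mir-27a under none of these. mir-23b was also called with the authors' scaling (0.38), limma with a pseudocount of 1 (0.38) or 10 (0.38), a mean of at least 100 (0.30) and paralogs summed (0.42 for mir-23a plus mir-23b). mir-27b was also called with limma (0.36 with either pseudocount). With 1 library left out, the log2 fold changes ranged from 0.47 to 0.64 for mir-23a, 0.06 to 0.28 for mir-27a, -0.61 to -0.41 for mir-24-2, 0.22 to 0.40 for mir-23b, 0.16 to 0.39 for mir-27b and -0.71 to -0.43 for mir-24-1. The cause was not tested.

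Entries called were 43 higher and 65 lower, against 54 and 39 with the authors' scaling, 57 and 37 with limma at a pseudocount of 1, 56 and 37 at 10, and 36 and 46 with DESeq2 (48 adjusted p not given). With 1 library left out they ranged from 19 to 60 higher and 21 to 72 lower. Members called higher were 2 with the authors' scaling, 3 with limma at either pseudocount and 2 with a mean of at least 100, and 0 to 3 with 1 library left out, and members called lower 0 to 2. The replicate block gave 44 higher and 66 lower and changed no member's call. Deviations from the group mean correlated with r = 0.20 over 354 entries between vesicle libraries of the same number. Only 2 pairs exist and no source ties them, so the samples share only a number.

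With 1 library left out, the log2 ratio of mir-23b to mir-27b (0.02 with all) ranged from -0.023 to 0.058 and was negative without FFSS-Myo-EV replicate 2, and that of mir-27a to mir-27b (-0.08 with all) ranged from -0.21 to 0.048 and was positive without Myo-EV replicate 1. Members more than 2-fold higher in Myo-EVs than OB were 2 with paralogs summed and 2 with mir-3074 added, and 1 to 2 with 1 library left out. Left out in turn, up to 1 member was more than 2-fold higher in Myo-EVs than BM and in FFSS-Myo-EVs than OB. Members more than 2-fold lower in FFSS-Myo-EVs than OB were 3, but 4 with each other scaling, with paralogs summed and without FFSS-Myo-EV replicate 1. The fold of mir-24-1 in FFSS-Myo-EVs over BM turned from 1.36 to 0.720 with mir-3074 added. Members more than 2-fold lower in OB than BM were 0 with median-of-ratios factors and 0 with paralogs summed. OB and BM have 1 library each, which limits every comparison with cells.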
